A study of Mus musculus with 2 samples.

Results

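The nuclear factor kappa B (NF-kB) and tumour necrosis factor (TNF) pathway was examined as 30 named genes of the 31053 genes in the matrices, taken by their symbols from a list of pathway genes that was drawn up with earlier results of these data known. They comprised the 5 transcription factor subunits (Nfkb1, Nfkb2, Rel, Rela, Relb) and the IkB family genes, whose proteins bind them (Nfkbia, Nfkbib, Nfkbie, Nfkbiz, Bcl3). Regulators that TNF induces or that limit its signal were Tnfaip2, Tnfaip3, Tnip1 and Tnip3. The ubiquitin ligases and adaptors around the TNF receptors were Birc2, Birc3, Tank, Traf1, Traf2 and Traf3. The kinases were Map3k14, Ikbkb, Ikbke, Chuk and Ripk2, and Ikbkg encodes the scaffold of a kinase complex. The others were the ligand Tnf with its receptors Tnfrsf1a and Tnfrsf1b, and the adhesion molecule Icam1. All lungs came from female C57BL/6J mice, and the lungs of 8 mice were pooled for each treatment. Control mice received Alum without ovalbumin (OVA) intraperitoneally and saline intranasally, asthma mice were sensitized with OVA in Alum and then challenged intranasally with OVA, and tolerance mice inhaled OVA in the days before they went through the asthma protocol. Every group had thus received Alum, and the control pool is not a pool of untouched animals. Dendritic cells (DCs) and macrophages were sorted from the digested lungs, tagged with a hashtag antibody for each treatment, mixed in equal numbers and loaded on 2 lanes of the 10x Genomics 3′ platform, so that the lanes are technical replicates and each treatment has a single pool of mice.

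In resting cells the NF-kB dimers are held in the cytoplasm by inhibitor proteins of the IkB family. Signals from TNF receptors and from sensors of microbes recruit TRAF adaptors and ubiquitin ligases and activate the IkB kinase complex, which marks the inhibitor for destruction and frees dimers of Rela, Rel and Nfkb1 (the canonical arm). A slower arm runs through the kinase Map3k14 (NIK), which Traf2, Traf3 and the Birc proteins keep low, and ends in dimers of Relb and Nfkb2. Several members are themselves targets of NF-kB and damp the signal, above all Nfkbia and Tnfaip3. In DCs the pathway is known for its place in maturation, when cells raise costimulatory molecules and leave for the lymph node.

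Cells were assigned to classes by markers that are neither members nor on the lists of other pathway genes. The mature DC gate is still not independent of the pathway, because it selects for maturation, in which the pathway has a known place. Of 9856 cells kept, 7864 (79.8%) were gated: 4588 alveolar macrophages, 721 macrophages expressing C1q genes, 328 nonclassical monocytes, 316 Xcr1+ cDC1, 595 cDC2, 271 mature DCs (defined by markers such as Ccr7 and Fscn1), 537 B cells, 172 T cells, 69 neutrophils and 198 endothelial cells entered the analysis. Lymphocytes, neutrophils and endothelial cells were not targets of the sort. The classes of 36 classical monocytes, 25 NK cells and 8 basophils or mast cells were too small in at least 1 pool, and 0 epithelial cells met the gate. All markers of its own set were detected in each of the 10 classes in every pool. The mature DC markers summed to 7617 UMIs per 1000000 UMIs of the class (CPM) in mature DCs and to between 36.8 and 622 CPM in the other 9 classes. In mature DCs the cDC2 markers summed to 39.7, 187 and 96.4 CPM and the nonclassical monocyte markers to 826, 223 and 240 CPM in the control, asthma and tolerance pools, and their part in the results below was not tested. The matrices held 7897139 to 11459855 unique transcript counts (UMIs) each, and no barcode was shared between them (0 found). Between 98.5% and 99.2% of hashtag UMIs carried the tag of the matrix's own treatment. The matrices had been split by these same hashtags, so a high share was fixed in advance and is no independent check. Only 28 mature DCs and 38 C1q macrophages came from the control pool. Below, a level is given in CPM, and pool values are given in the order control, asthma and tolerance. Over 220 levels with at least 50 UMIs in each lane, the ratio of lane 2 to lane 1 had a median of 0.96 and ran from 0.495 to 1.94.

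The sequence to which NF-kB dimers bind, the kappaB motif, was looked for in the 250 bases before each RefSeq transcript start (build GRCm38.p6), on both strands. Its consensus was present for 8.23% of all 27025 genes with such a window and for 10 of the 25 members with a window (40.0%): Nfkb2, Rel, Nfkbia, Nfkbie, Tnfaip2, Tnfaip3, Tnip1, Tnip3, Tank and Traf3. Of single windows, 7.25% of 32851 held it. A looser form, GGGNNNNNCC, which every match of the consensus also fits, was found in 45.8% of all windows. It was found for 48.7% of all genes and for 21 of the 25 members, the 10 above included. A match is a string of letters and not a shown binding site. The windows of 5 members that hold the consensus and differed between classes in the comparisons further on are printed below 5′ to 3′ on the strand of the gene. The other members with the consensus, Nfkb2, Rel, Tnfaip2, Tnfaip3 and Tank, also differed between classes, and their windows are not printed. Capitals mark the consensus. The first 3 genes printed were higher in cDC2 than in alveolar macrophages and the last 2 printed were higher in mature DCs than in cDC2.
Nfkbia (chr12:55492648-55492897, minus strand): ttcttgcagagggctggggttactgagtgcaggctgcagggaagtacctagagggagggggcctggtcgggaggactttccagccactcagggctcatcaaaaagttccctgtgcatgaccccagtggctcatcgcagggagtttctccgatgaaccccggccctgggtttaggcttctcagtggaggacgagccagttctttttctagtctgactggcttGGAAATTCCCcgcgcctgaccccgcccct
Nfkbie (chr17:45555450-45555699, plus strand): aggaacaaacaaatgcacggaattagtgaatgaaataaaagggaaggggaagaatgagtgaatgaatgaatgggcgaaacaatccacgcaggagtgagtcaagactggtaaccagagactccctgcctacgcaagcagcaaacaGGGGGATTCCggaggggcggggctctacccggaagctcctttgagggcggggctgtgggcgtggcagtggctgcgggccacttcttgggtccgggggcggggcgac
Tnip3 (chr6:65590148-65590397, plus strand): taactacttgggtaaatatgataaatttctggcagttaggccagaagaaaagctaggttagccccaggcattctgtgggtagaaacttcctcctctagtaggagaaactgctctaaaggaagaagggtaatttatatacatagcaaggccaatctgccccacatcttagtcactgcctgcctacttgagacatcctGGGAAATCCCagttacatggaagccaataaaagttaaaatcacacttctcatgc
Tnip1 (chr11:54962941-54963190, minus strand): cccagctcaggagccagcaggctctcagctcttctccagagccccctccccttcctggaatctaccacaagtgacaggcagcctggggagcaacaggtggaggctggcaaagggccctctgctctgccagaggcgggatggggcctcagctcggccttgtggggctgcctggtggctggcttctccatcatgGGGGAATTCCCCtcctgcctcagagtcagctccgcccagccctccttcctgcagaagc
Traf3 (chr12:111166120-111166369, plus strand): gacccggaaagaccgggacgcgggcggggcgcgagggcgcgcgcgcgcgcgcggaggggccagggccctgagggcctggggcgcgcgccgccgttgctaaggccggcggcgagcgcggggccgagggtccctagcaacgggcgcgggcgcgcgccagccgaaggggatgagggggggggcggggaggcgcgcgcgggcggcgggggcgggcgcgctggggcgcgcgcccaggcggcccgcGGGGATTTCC

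The matches begin 29 bases before the transcript start in Nfkbia, 106 in Nfkbie, 54 in Tnip3 and 10 in Traf3. Tnip1 holds 3 overlapping matches within the capitals, the outermost beginning 58 bases before the start. No match to the consensus lay in the windows of Traf1, Nfkbib, Birc2 or Birc3, which says only that these letters are not in that stretch. Nfkb1, Relb, Nfkbiz, Ikbkb and Ripk2 had no window.

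Mature DCs had the highest mean level of 14 of the 30 members, neutrophils of 7, nonclassical monocytes of 4 and endothelial cells of 2. B cells, T cells and cDC2 were highest for 1 member each. How many of all genes were highest in each class was not counted, so these numbers describe the members only. The 14 members highest in mature DCs included 4 of the 5 subunits (Rela being the exception), all 3 TRAF genes, both Birc genes, Tank and Map3k14. Neutrophils, with 17 to 28 cells per pool, were highest for Nfkbia, Nfkbiz, Bcl3, Tnfaip2, Tnfaip3, Tnf and Tnfrsf1a. Alveolar macrophages, C1q macrophages and cDC1 were highest for 0 members. Chuk, counted for mature DCs, had practically the same mean in cDC1 (64.2 CPM in both).

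**Figure D1:**
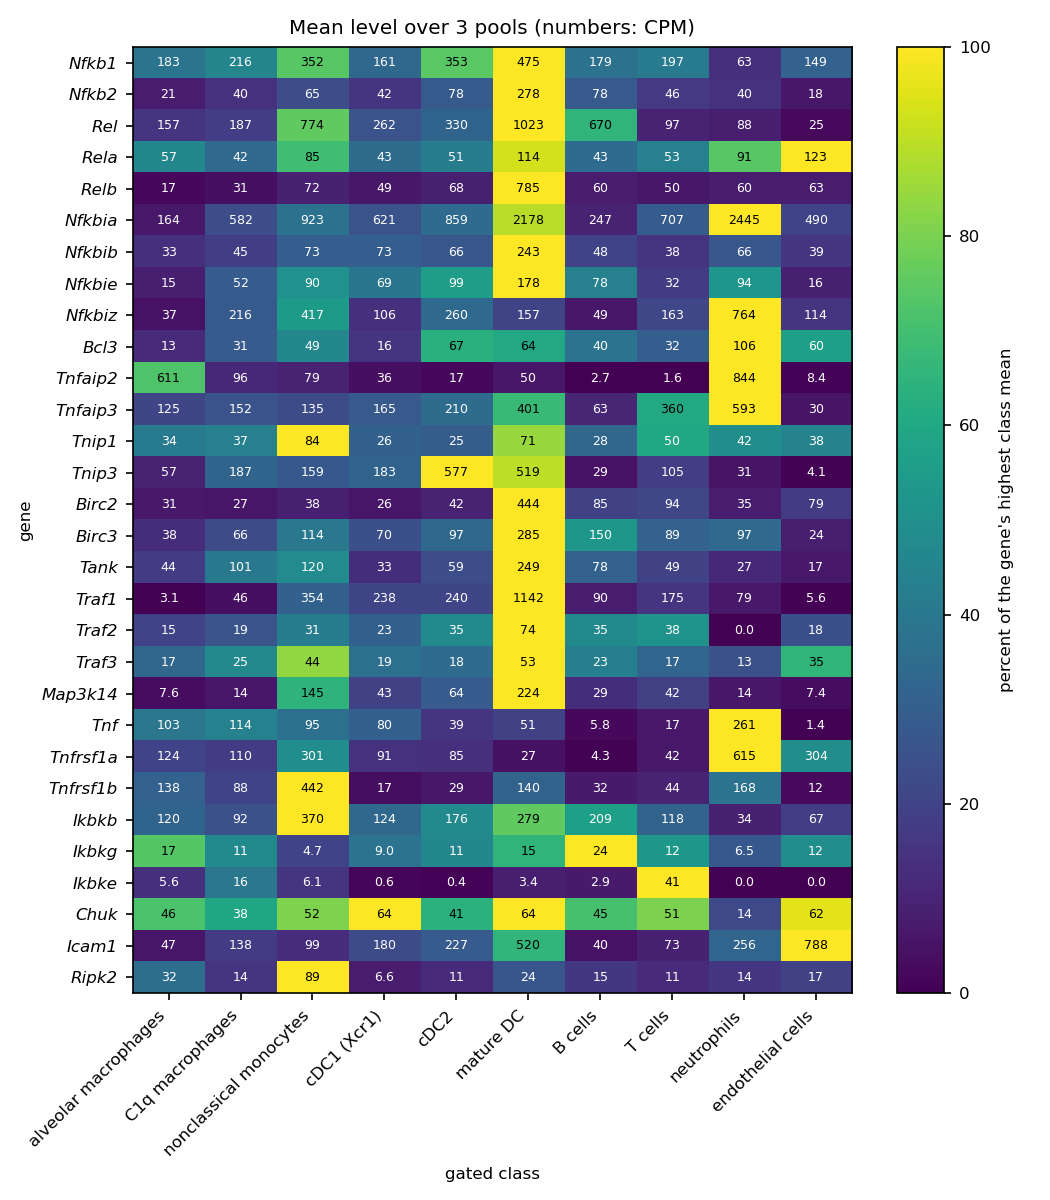
Heat map of the 30 members (rows) in the 10 gated classes (columns). The number in each cell is the mean level over the 3 pools in CPM and the colour is that mean as a percentage of the gene's highest class, so that the column of mature DCs is brightest for 14 genes and that of neutrophils for 7.

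Relb, the subunit of the slower arm, separated mature DCs from all other cells. Its level in mature DCs was 929, 670 and 755 CPM, against 38.6, 76.6 and 88.1 CPM in cDC2 and 16.9, 16.2 and 17.9 CPM in alveolar macrophages. The next classes after mature DCs, nonclassical monocytes at 71.5 ± 14.7 CPM (SD, n = 3 pools) and cDC2 at 67.7 ± 25.9 CPM, overlapped each other. Relb lies at chr7:19606217-19629438 on the minus strand. Nfkb2, the partner of Relb, reached 262, 275 and 297 CPM in mature DCs, and its level in cDC2 (78.5 ± 30.1 CPM), B cells (77.6 ± 6.94 CPM) and nonclassical monocytes (65.4 ± 10.6 CPM) did not differ beyond the spread of the pools.

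Rel, which encodes c-Rel, was high in 3 unlike classes. It stood at 1041, 1071 and 959 CPM in mature DCs, at 728, 843 and 752 CPM in nonclassical monocytes and at 670, 760 and 581 CPM in B cells. The pools of mature DCs lay above those of nonclassical monocytes without overlap, whereas nonclassical monocytes and B cells overlapped. Alveolar macrophages held 157 ± 34.3 CPM, T cells 96.9 ± 27.0 CPM and endothelial cells 25.1 ± 21.7 CPM. Nfkb1, the precursor of the p50 subunit, differed less among classes, from 63.4 ± 27.0 CPM in neutrophils to 475 ± 133 CPM in mature DCs, and the mature DC pools (334, 598 and 495 CPM) overlapped those of cDC2 (340, 361 and 357 CPM). Rela, the main activating subunit, was the most even of the 5, with 41.9 ± 8.16 CPM in C1q macrophages and 123 ± 48.2 CPM in endothelial cells at the ends of the range and mature DCs at 159, 92.6 and 91.2 CPM.

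**Figure D2:**
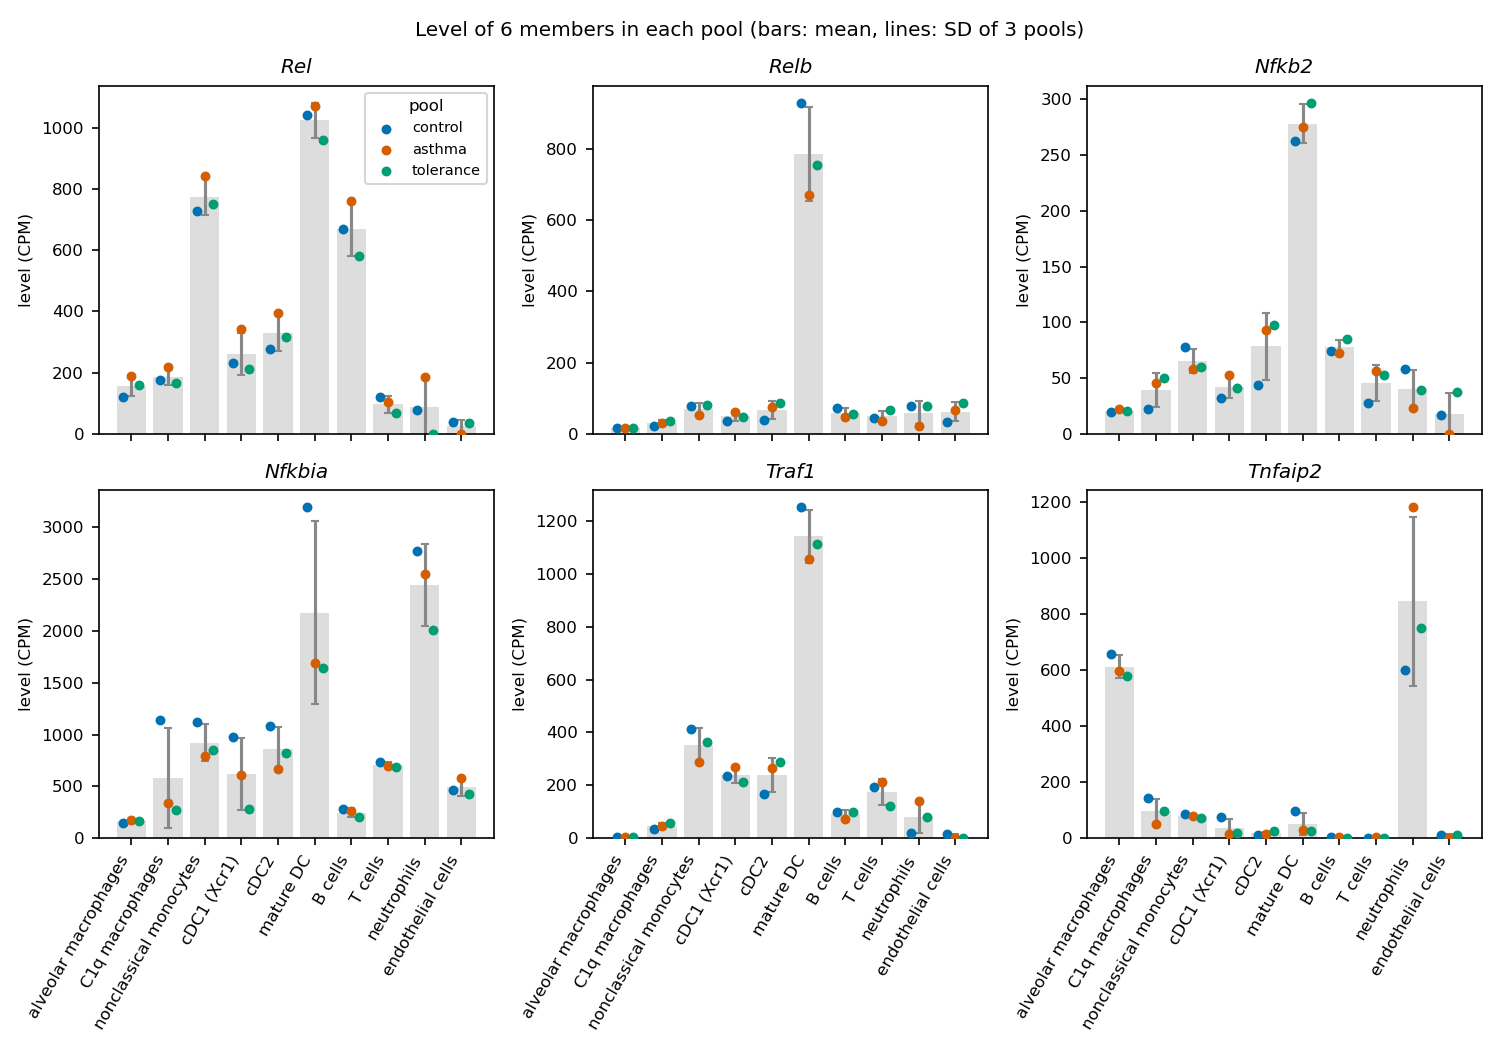
Level in CPM (vertical axis, starting at 0) of Rel, Relb, Nfkb2, Nfkbia, Traf1 and Tnfaip2 in the 10 classes. Grey bars are means and lines the SD of 3 pools, and the coloured points are the pools. Relb and Traf1 peak in mature DCs, Rel also in nonclassical monocytes and B cells, and Tnfaip2 in alveolar macrophages and neutrophils.

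Mature DCs were compared with cDC2 to ask how the pathway differs between these classes of lung DCs. Of the 595 cDC2, 329 came from the asthma pool and 170 from the tolerance pool. Of the 29 members tested, 23 were higher in mature DCs and 1 was lower, while 5 did not pass. Of all 8056 genes tested, 20.9% were higher and 21.9% lower. The median log2 fold change was 1.41 over the members and -0.03 over all genes. The test was edgeR's quasi-likelihood test on UMIs summed per pool and class, with the pool as a block and Benjamini-Hochberg adjustment over all 8056 genes. The pools are also the treatments, so the spread between them includes any effect of treatment, and p-values rest on 3 pools. Ikbkg, the scaffold of the kinase complex, was too low to be tested in any comparison, with 0 to 35.3 CPM in single pools. Of the 24 members called, 22 moved the same way in all 3 pools, and 20 had no overlap between the pools of the 2 classes. The same was not counted over all called genes, so these numbers describe the members and add no support to the calls.

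Relb rose by a log2 fold change of 3.68 ± 0.19 (SE, adjusted p = 8.7e-18 by edgeR). Birc2, a ubiquitin ligase that restrains Map3k14, was nearly as different, with 572, 437 and 323 CPM in mature DCs against 49.1, 38.7 and 39.4 CPM in cDC2 and a log2 fold change of 3.62 ± 0.19. Traf1, an adaptor of TNF family receptors at chr2:34941750-34961772, had 1255, 1057 and 1115 CPM in mature DCs against 167, 265 and 287 CPM in cDC2, a log2 fold change of 2.47 ± 0.19. For Tnfrsf1b, the TNF receptor found mainly on immune cells, the levels were 183, 120 and 117 CPM against 21.0, 31.6 and 32.9 CPM, a log2 fold change of 2.36 ± 0.26. Tank, which binds TRAF proteins, followed at 2.33 ± 0.17, with 270, 264 and 214 CPM against 61.4, 65.9 and 49.4 CPM. In each of these 5 genes the lowest mature DC pool lay above the highest cDC2 pool.

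Among the other subunits, Nfkb2 differed by 2.01 ± 0.18, Rel by 1.87 ± 0.19, Rela by 1.24 ± 0.22 and Nfkb1 by 0.71 ± 0.18 on the log2 scale. The cytoplasmic inhibitors rose too, Nfkbib by 2.05 ± 0.21, Nfkbia by 1.52 ± 0.27 and Nfkbie by 0.94 ± 0.21. Of the feedback regulators Tnip1 (1.46 ± 0.25) and Tnfaip3 (1.06 ± 0.29) were higher, and so was Icam1 (1.37 ± 0.31), with overlapping pools. The nuclear IkB family genes Nfkbiz (-0.47 ± 0.29, adjusted p = 0.21 by edgeR) and Bcl3 (-0.13 ± 0.25, adjusted p = 0.73 by edgeR) did not pass. Nor did Tnip3 (0.04 ± 0.36), Chuk (0.43 ± 0.30) or Tnf (0.64 ± 0.46). Tnfrsf1a, the widely expressed TNF receptor, was the single member lower in mature DCs, at 23.8, 28.3 and 28.7 CPM against 84.1, 90.4 and 80.2 CPM in cDC2 (log2 fold change -1.32 ± 0.29). The TNF receptors thus moved in opposite directions. Ikbke was called as higher from 7 UMIs in mature DCs and 3 in cDC2, a ratio of 6.84 with an exact counting interval of 1.56 to 41.0. Without the asthma pool Nfkb1, Tnfaip2 and Ikbke lost their calls, 20 members were higher and the genes called fell from 3442 to 1863. Ripk2 lost its call without the tolerance pool, as did Ikbke. Without lane 2, 18 members were higher and 2 lower: Nfkbie, Ikbkb and Tnfaip2 lost their calls, Ripk2 and Ikbke were too low to be tested, and Nfkbiz was called as lower.

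**Figure D3:**
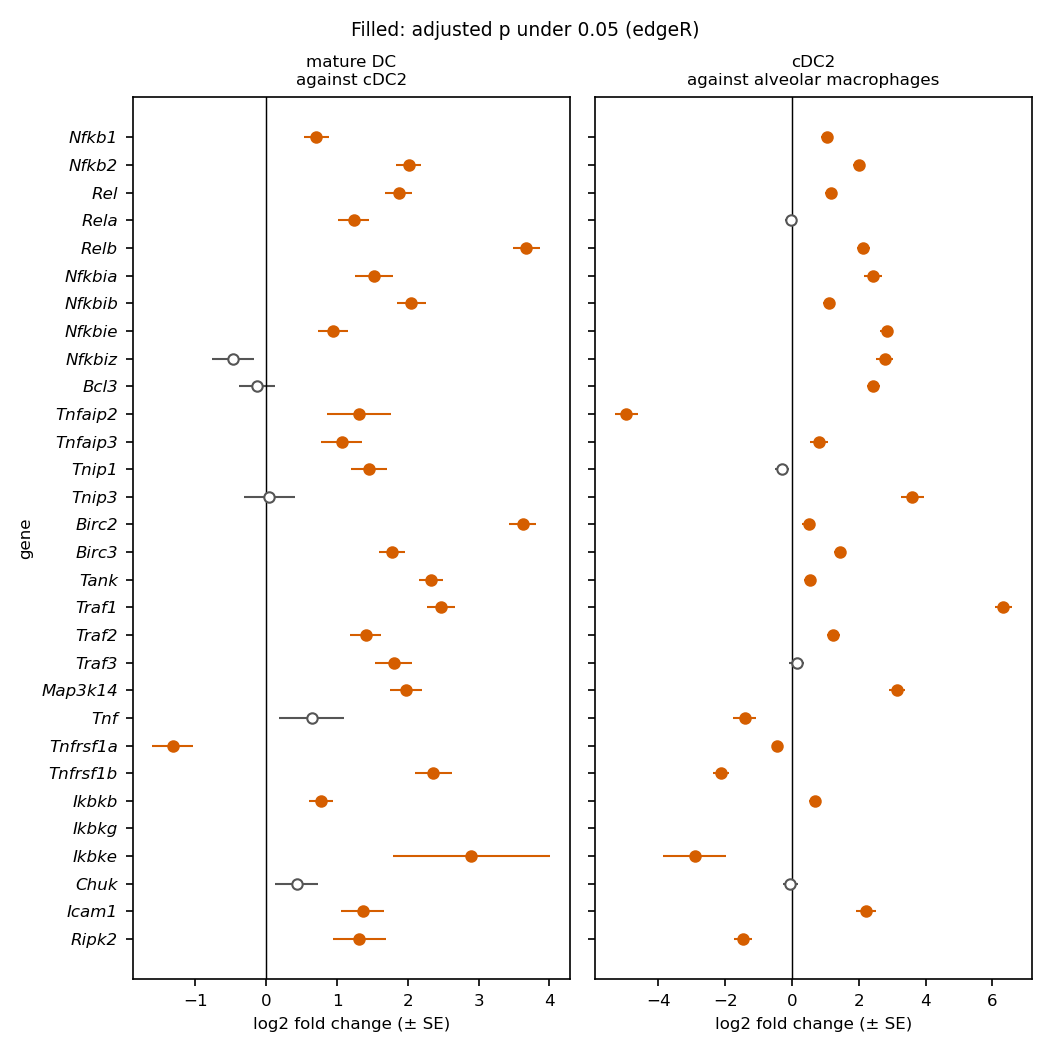
Log2 fold change with its SE for each member in mature DCs against cDC2 (left) and in cDC2 against alveolar macrophages (right). Filled points passed an adjusted p of 0.05 by edgeR and open points did not. On the left 23 filled points lie above 0 and Tnfrsf1a below, on the right 19 lie above 0 and 6 below, with Tnfaip2 lowest and Traf1 highest.

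The second comparison set cDC2 against alveolar macrophages, the 2 main targets of the sort. Here 19 of 29 members were higher in cDC2 and 6 lower, against 25.9% and 25.7% of all genes, and the median log2 fold change was 1.04 over the members and -0.02 over all genes. All 25 called members moved the same way in every pool without overlap, which was again not counted over all called genes. Traf1 was nearly undetected in alveolar macrophages, at 3.11, 3.08 and 3.09 CPM, and its log2 fold change of 6.33 ± 0.26 was the largest of any member in this comparison (adjusted p = 2.8e-21 by edgeR). Tnip3, which binds Tnfaip3 and dampens NF-kB, had 550, 671 and 509 CPM in cDC2 against 8.49, 88.2 and 74.7 CPM in alveolar macrophages (3.60 ± 0.34). Map3k14 (3.14 ± 0.23), Nfkbie (2.84 ± 0.20), Nfkbiz (2.78 ± 0.26), Bcl3 (2.44 ± 0.20) and Nfkbia (2.42 ± 0.26) came next, so that 4 of the 5 IkB genes rose by more than 2 on the log2 scale. Relb rose by 2.13 ± 0.19, Nfkb2 by 2.00 ± 0.17, Rel by 1.16 ± 0.18 and Nfkb1 by 1.04 ± 0.17. Rela had a log2 fold change of -0.04 ± 0.18.

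What alveolar macrophages had more of was Tnfaip2, a gene named for its induction by TNF. It held 657, 597 and 578 CPM there and 10.5, 15.8 and 23.6 CPM in cDC2, a log2 fold change of -4.96 ± 0.34 (adjusted p = 1.1e-15 by edgeR). Tnfrsf1b followed with 146, 127 and 141 CPM against 21.0, 31.6 and 32.9 CPM (-2.13 ± 0.23). Ripk2, the kinase that passes on signals of the NOD sensors, differed by -1.47 ± 0.28 and Tnf itself by -1.42 ± 0.33, with 148, 96.7 and 65.6 CPM of Tnf in alveolar macrophages and 64.9, 25.6 and 26.5 CPM in cDC2. The lowest alveolar macrophage pool of Tnf lay just above the highest cDC2 pool. Ikbke differed by -2.91 ± 0.95, with 123 UMIs in alveolar macrophages and 3 in cDC2 and a ratio of 7.43 (2.48 to 36.5). The smallest called difference was Tnfrsf1a at -0.43 ± 0.17. Without the asthma pool Tnf, Tnfaip3, Birc2, Tank, Tnfrsf1a and Ikbkb lost their calls, leaving 15 members higher and 4 lower, and 2518 genes were called in place of 4156. Ikbke lost its call without the tolerance pool.

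Macrophages were split by the C1q genes, which mark interstitial macrophages, to compare them with alveolar macrophages. Of the members, 14 were higher in C1q macrophages and 2 lower, against 17.4% and 16.8% of all genes, with a median log2 fold change of 0.52 over members. The cDC2 markers summed to 982 CPM in C1q macrophages (714, 1072 and 955 CPM by pool) and to 74.5 CPM in alveolar macrophages, and 24.4% of C1q macrophages had UMIs of at least 2 of the 6 cDC2 markers. Members high in cDC2, such as Traf1, Nfkbiz, Nfkbie, Tnip3 and Nfkbia, are among those below, and the part of these markers in their difference was not tested. Traf1 was again foremost, with 34.0, 47.4 and 55.5 CPM and a log2 fold change of 4.02 ± 0.29. Nfkbiz differed by 2.31 ± 0.27, Nfkbie by 1.92 ± 0.22, Tnip3 by 1.86 ± 0.37, Ikbke by 1.75 ± 0.35 and Nfkbia by 1.59 ± 0.27. Tnfaip2 was lower, with 142, 51.7 and 95.1 CPM in C1q macrophages and a log2 fold change of -2.75 ± 0.28, as was Ripk2 at -0.89 ± 0.25. Of the subunits, Nfkb2 (1.07 ± 0.20) and Relb (1.01 ± 0.22) passed, and Rel (0.30 ± 0.19), Nfkb1 (0.22 ± 0.18) and Rela (-0.28 ± 0.19) did not.

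Levels of the C1q macrophages rest unevenly on the pools. Nfkbia stood at 1139 CPM in the 38 cells of the control pool and at 340 and 269 CPM in the asthma and tolerance pools, and Nfkbiz at 402, 140 and 107 CPM. The control value of Nfkbia was 807 CPM in lane 1 and 1563 CPM in lane 2. A set of 10 early response genes linked to tissue digestion, such as Fos, Jun and Egr1, summed to 14700 CPM in the C1q macrophages of the control pool. The other pools held 7214 and 6121 CPM. Means over the pools were 9345 CPM in C1q macrophages, 5548 CPM in alveolar macrophages and 7733 CPM in nonclassical monocytes. They were 6835 CPM in cDC2, 3589 CPM in mature DCs, 3374 CPM in B cells and 4345 CPM in T cells. The part of these genes in the levels and in the class comparisons was not tested. Without the control pool 15 members were higher and 7 lower. Map3k14, Relb and Traf2 lost their calls without the tolerance pool, and Traf2, Ripk2 and Ikbke without the asthma pool, and all genes called fell from 2757 to 1680 and 1518 without these pools.

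Nonclassical monocytes, which patrol vessels, were compared with C1q macrophages. They were higher in 16 members and lower in 1, against 15.1% and 14.7% of all genes, with a median log2 fold change of 0.74 over members and -0.04 over all genes. Map3k14 led with 141, 141 and 155 CPM against 11.3, 9.91 and 20.1 CPM, a log2 fold change of 3.17 ± 0.30 (adjusted p = 5.8e-11 by edgeR). Traf1 followed with 412, 288 and 363 CPM against 34.0, 47.4 and 55.5 CPM (2.78 ± 0.24). Ripk2 had 77.6, 113 and 75.8 CPM against 5.66, 14.2 and 21.8 CPM (2.42 ± 0.29), and both TNF receptors were higher, Tnfrsf1b by 2.17 ± 0.22 and Tnfrsf1a by 1.41 ± 0.19. These monocytes held 539, 391 and 395 CPM of Tnfrsf1b and 388, 370 and 351 CPM of Ikbkb, the highest mean of any class for both genes.

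Among the subunits, Rel was higher by 2.04 ± 0.20, Relb by 1.03 ± 0.27, Rela by 0.83 ± 0.24 and Nfkb1 by 0.75 ± 0.19, while Nfkb2 (0.50 ± 0.25, adjusted p = 0.14) did not pass. Ikbke was lower (-1.68 ± 0.70) on 6 UMIs in the monocytes against 92. The counts depended on single pools: without the tolerance pool 8 members were higher and 0 lower, without the asthma pool 11 and 0, and all genes called fell from 2400 to 1405 and 1257. The 8 members called under every setting were Rel, Tnip1, Traf1, Map3k14, Tnfrsf1a, Tnfrsf1b, Ikbkb and Ripk2. Tnfaip3 did not separate the classes, with 136, 133 and 136 CPM in nonclassical monocytes and 227, 136 and 92.8 CPM in C1q macrophages.

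B cells and T cells, the lymphocytes that passed the sort, differed in fewer members. The cDC2 markers summed to 534 CPM in T cells (1167, 573 and 163 CPM by pool) and to 56.4 CPM in B cells. Of the T cells, 6.98% had UMIs of at least 2 of the 6 cDC2 markers. Members high in cDC2, such as Nfkbia, Nfkbiz, Tnfaip3 and Traf1, are among those below, and the part of these markers in their difference was not tested. Rel, Birc3 and Ikbkb were higher in B cells and 6 members lower, against 6.36% and 7.01% of all genes. Rel stood at 670, 760 and 581 CPM in B cells against 119, 104 and 67.1 CPM in T cells, a log2 fold change of 2.91 ± 0.27 (adjusted p = 3.2e-11 by edgeR). Birc3 differed by 0.89 ± 0.27 and Ikbkb by 0.86 ± 0.23. Of the 5 IkB family genes, Nfkbia and Nfkbiz were higher in T cells and Nfkbib, Nfkbie and Bcl3 did not pass, with log2 fold changes of 0.30, 1.14 and 0.49. Of the feedback regulators Tnfaip3 was higher in T cells, and Tnip1 (-0.79) and Tnip3 (-1.60) did not pass. Tnfaip3, an enzyme that removes and adds ubiquitin chains on signalling proteins, had 313, 351 and 417 CPM there against 84.6, 71.5 and 33.7 CPM in B cells (-2.51 ± 0.38), and Nfkbia had 735, 701 and 685 CPM against 282, 258 and 200 CPM (-1.49 ± 0.30). Nfkbiz was lower in B cells by a log2 fold change of -1.87 ± 0.42 and Traf1 by -0.92 ± 0.28. Tnfrsf1a (-2.63 ± 0.65) and Ikbke (-4.05 ± 0.98) rested on few counts in B cells, Ikbke on 3 UMIs against 22, a ratio of 18.2 (5.47 to 95.04). The other 4 subunits did not pass. Without the asthma pool Traf1, Nfkbiz, Birc3 and Ikbkb lost their calls, without the tolerance pool Birc3 and Ikbkb did, and without the control pool Tnfrsf1a did. The genes called fell from 1077 to 547 without the asthma pool and to 653 without the tolerance pool.

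**Figure D4:**
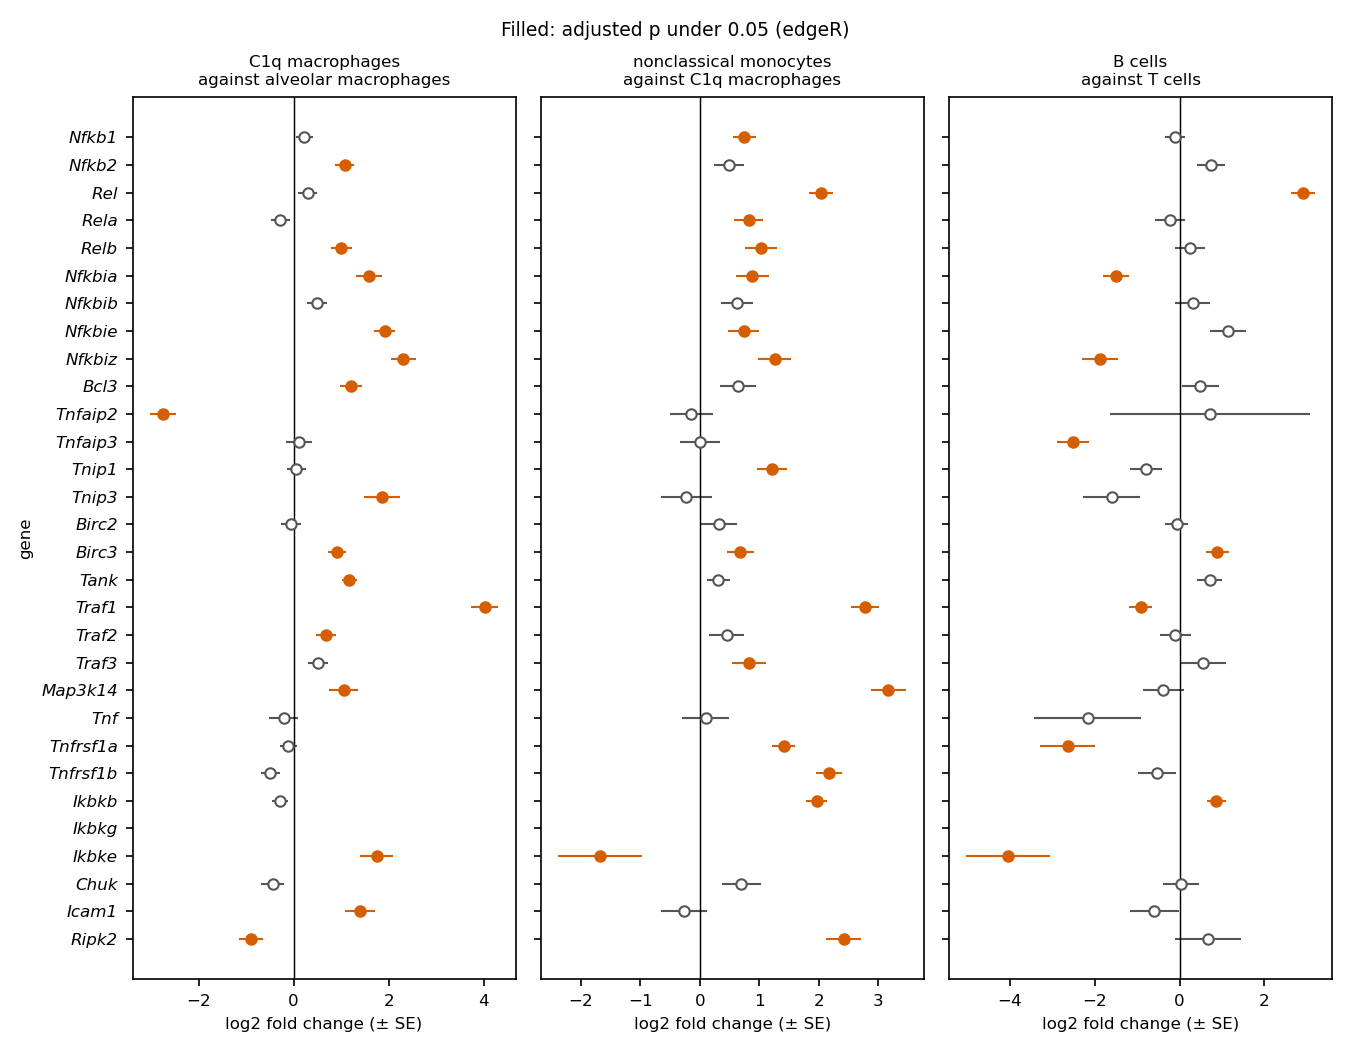
Log2 fold change with its SE for each member in C1q macrophages against alveolar macrophages, nonclassical monocytes against C1q macrophages and B cells against T cells. Filled points passed an adjusted p of 0.05 by edgeR. Of the filled points, 14, 16 and 3 lie above 0 and 2, 1 and 6 below.

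Other genes of the pathway, 74 in all, were on 4 lists. In mature DCs against cDC2, 12 of 21 tested NF-kB target genes were higher and 5 lower, beside 20.9% and 21.9% of all genes for this and the other lists. Ccl5, a T cell attractant, had a mean of 3833 ± 3207 CPM (SD, n = 3 pools) in mature DCs and 7.34 ± 3.96 CPM in cDC2, and Il12b, a subunit of interleukin-12, rested on 3 UMIs in cDC2 against 791 (ratio 773, interval 263 to 3756). Ccl4 and Plau were among the 5 lower genes, Ccl4 with a log2 fold change of -3.28 ± 0.54. Of the TNF superfamily, 5 of 14 were higher and 3 lower. Tnfrsf4 had no UMI in cDC2 and was at least 489.5-fold higher in mature DCs, taking 3 counts over the 3 pools as the floor, and Tnfrsf9 had 1 UMI in cDC2 and 275 in mature DCs (ratio 806, interval 143 to 31953). Of the receptor complex genes, 4 of 14 were higher, with Cflar (2.45 ± 0.25) and Traf6 (2.09 ± 0.29) foremost, and Casp8 (-0.63 ± 0.22) was lower. Of the sensors and adaptors, 5 of 11 were higher, among them Map3k8 (1.33 ± 0.25), and 3 lower, among them Myd88 (-1.13 ± 0.26), the adaptor of most Toll-like receptors.

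In cDC2 against alveolar macrophages 8 of 21 target genes were higher and 6 lower, beside 25.9% and 25.7% of all genes. Ccl22 (3.53 ± 0.37) and Cd83 (3.18 ± 0.23) were higher in cDC2, whereas the neutrophil attractants Cxcl1 (-3.10 ± 1.08) and Cxcl2 (-2.95 ± 0.36) were higher in alveolar macrophages, Cxcl2 at 1268 ± 51.0 CPM against 152 ± 25.2 CPM. Of the TNF superfamily 6 were higher, led by Tnfsf9 (6.94 ± 0.39) and Ltb (6.13 ± 0.54), and 3 were lower. Receptor complex genes were higher in 5 cases and lower in 1, and sensors and adaptors in 4 and 3. In C1q against alveolar macrophages, where 17.4% of all genes were higher and 16.8% lower, 10 of 21 targets were higher, among them Ccl5 (6.12 ± 0.68) and Vcam1 (5.30 ± 0.54), and 2 lower, Il6 (-2.26 ± 0.34) and Ccl3 (-1.13 ± 0.37). The TNF superfamily gave 6 higher and 2 lower, the receptor complex 1 and 0, and the sensors 1 and 3.

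In nonclassical monocytes against C1q macrophages 15.1% of all genes were higher and 14.7% lower, and differences between the lists were not tested. Of the sensors and adaptors, 6 of 11 were higher and 0 lower, with Nod1 at 3.20 ± 0.33 and Map3k8 at 1.57 ± 0.26. Of the 21 target genes, 5 were higher and 8 lower. Bcl2a1d (1.37 ± 0.20) and Il1b (1.27 ± 0.34) were among the higher, and Cxcl1 and Vcam1, with no UMI in the monocytes, were at least 14.03-fold and 15.3-fold lower. The TNF superfamily had 2 in each direction, with Ltb at 5.63 ± 0.52, and the receptor complex 2 higher and 1 lower. In B against T cells, where 6.36% of all genes were higher and 7.01% lower, the lists gave 2 and 1, 3 and 1, 3 and 5, and 1 and 2 genes higher and lower, in the order receptor complex, sensors, TNF superfamily and targets. Tnfrsf13c, the receptor for the B cell survival factor BAFF, was higher in B cells with 173 UMIs against 1 (ratio 69.7, interval 12.3 to 2767), and Cd27 was higher in T cells.

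Shares of cells with a UMI were compared after thinning each cell to 1000 UMIs. Traf1 was found in 61.1% of mature DCs (exact Clopper-Pearson 95% interval 55.02 to 66.96%), 28.3% of nonclassical monocytes (23.5 to 33.6%), 22.1% of cDC2 (18.8 to 25.6%) and 0.305% of alveolar macrophages (0.167 to 0.512%). Unthinned, the shares were 94.5%, 53.7%, 70.4% and 1.35%, with median depths of 5453, 2272, 7159 and 5012 UMIs. Tnfaip2 was found in 44.7% of thinned alveolar macrophages, 6.54% of nonclassical monocytes, 1.69% of cDC2 and 0.380% of B cells. Its unthinned shares were 89.1%, 18.0%, 8.74% and 0.745%. Whether free RNA gave the low shares of Traf1 in alveolar macrophages and of Tnfaip2 in B cells was not tested. Intervals cover counting error only.

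Treatments have a single pool of mice each, so that differences between them carry no test, and the asthma pool enters both comparisons. A member was counted when its level differed at least 2-fold with at least 20 UMIs in the 2 pools, and log2 ratios below have 1 UMI added to each pool. Asthma was set against control in the 5 classes with 50 cells in each pool. In alveolar macrophages 2 of 30 members passed the fold (background 6.3% of all genes), in nonclassical monocytes 1 of 28 (5.79%), in cDC1 3 of 27 (7.66%), in cDC2 5 of 29 (13.3%) and in B cells 3 of 25 (5.16%). The members past the fold are described as single genes, and nothing is read from these small counts.

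Tnip3 was higher in the asthma pool in alveolar macrophages, where it rose from 8.49 CPM (95% Poisson interval 6.97 to 10.2) in control to 88.2 CPM (81.6 to 95.2) in asthma, with 74.7 CPM in tolerance. The log2 ratio of asthma to control was 3.37, with 3.40 and 3.27 in the lanes, and it was 2.51 when cells removed as likely doublets were kept. Tnfaip3 went from 75.9 to 157 CPM in the same cells, a log2 ratio of 1.05. In nonclassical monocytes Tnip3 had 102 CPM in control and 246 CPM in asthma (log2 ratio 1.22). In cDC2 it was high in every pool and did not reach the fold.

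In cDC2 the asthma pool had less of Nfkbiz, Icam1 and Tnf and more of Nfkb2 and Bcl3 than the control pool. Nfkbiz stood at 433 CPM (381 to 491) in control and 160 CPM (145 to 176) in asthma, Icam1 at 358 and 141 CPM, and Tnf at 64.9 and 25.6 CPM, with log2 ratios of -1.44, -1.35 and -1.35. Nfkb2 went from 43.8 to 93.5 CPM and Bcl3 from 38.6 to 84.1 CPM, log2 ratios of 1.04 and 1.07. Icam1 had a log2 ratio of -0.91 in lane 1 and -1.71 in lane 2. The tolerance pool lay near the asthma pool in each of the 5 genes, and 0 members passed the fold between them (background 2.65%). The mature DC markers in cDC2 summed to 15.8, 97.9 and 69.5 CPM in the 3 pools and the alveolar macrophage markers to 377, 613 and 471 CPM, and their part in the differences of Nfkb2, Bcl3 and the other members was not tested. The early response genes summed to 9381 CPM in the cDC2 of the control pool, 5406 CPM in asthma and 5719 CPM in tolerance, and their part in the lower Nfkbiz, Icam1 and Tnf of the asthma pool was not tested.

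In Xcr1+ cDC1 the control, asthma and tolerance pools were compared in the same way. Nfkbia had 973, 613 and 276 CPM, Nfkbiz 193, 91.3 and 32.9 CPM, Tnf 145, 77.0 and 17.1 CPM, Icam1 258, 184 and 97.4 CPM and Tnfaip3 231, 190 and 74.3 CPM. Of these 5, Nfkbiz alone passed the fold between asthma and control, and Icam1 passed it in neither comparison. Between tolerance and asthma 5 of 27 members passed the fold (background 3.66%), and all 5 were lower in tolerance: Tnf (log2 ratio -2.09), Tnfrsf1b (-1.79), Nfkbiz (-1.44), Tnfaip3 (-1.34) and Nfkbia (-1.15). Their Poisson intervals do not overlap. For Tnf the lanes disagreed, with -2.53 in lane 1 and -0.72 in lane 2. Tnfaip2 (-2.34) and Nfkbiz (-1.08) were lower in asthma than in control, while Bcl3 had 3 UMIs in control and 23 in asthma, a ratio of 4.02 with a counting interval of 1.21 to 20.9. The early response genes summed to 12058, 7450 and 5994 CPM in these pools, and their part in these differences was not tested.

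**Figure D5:**
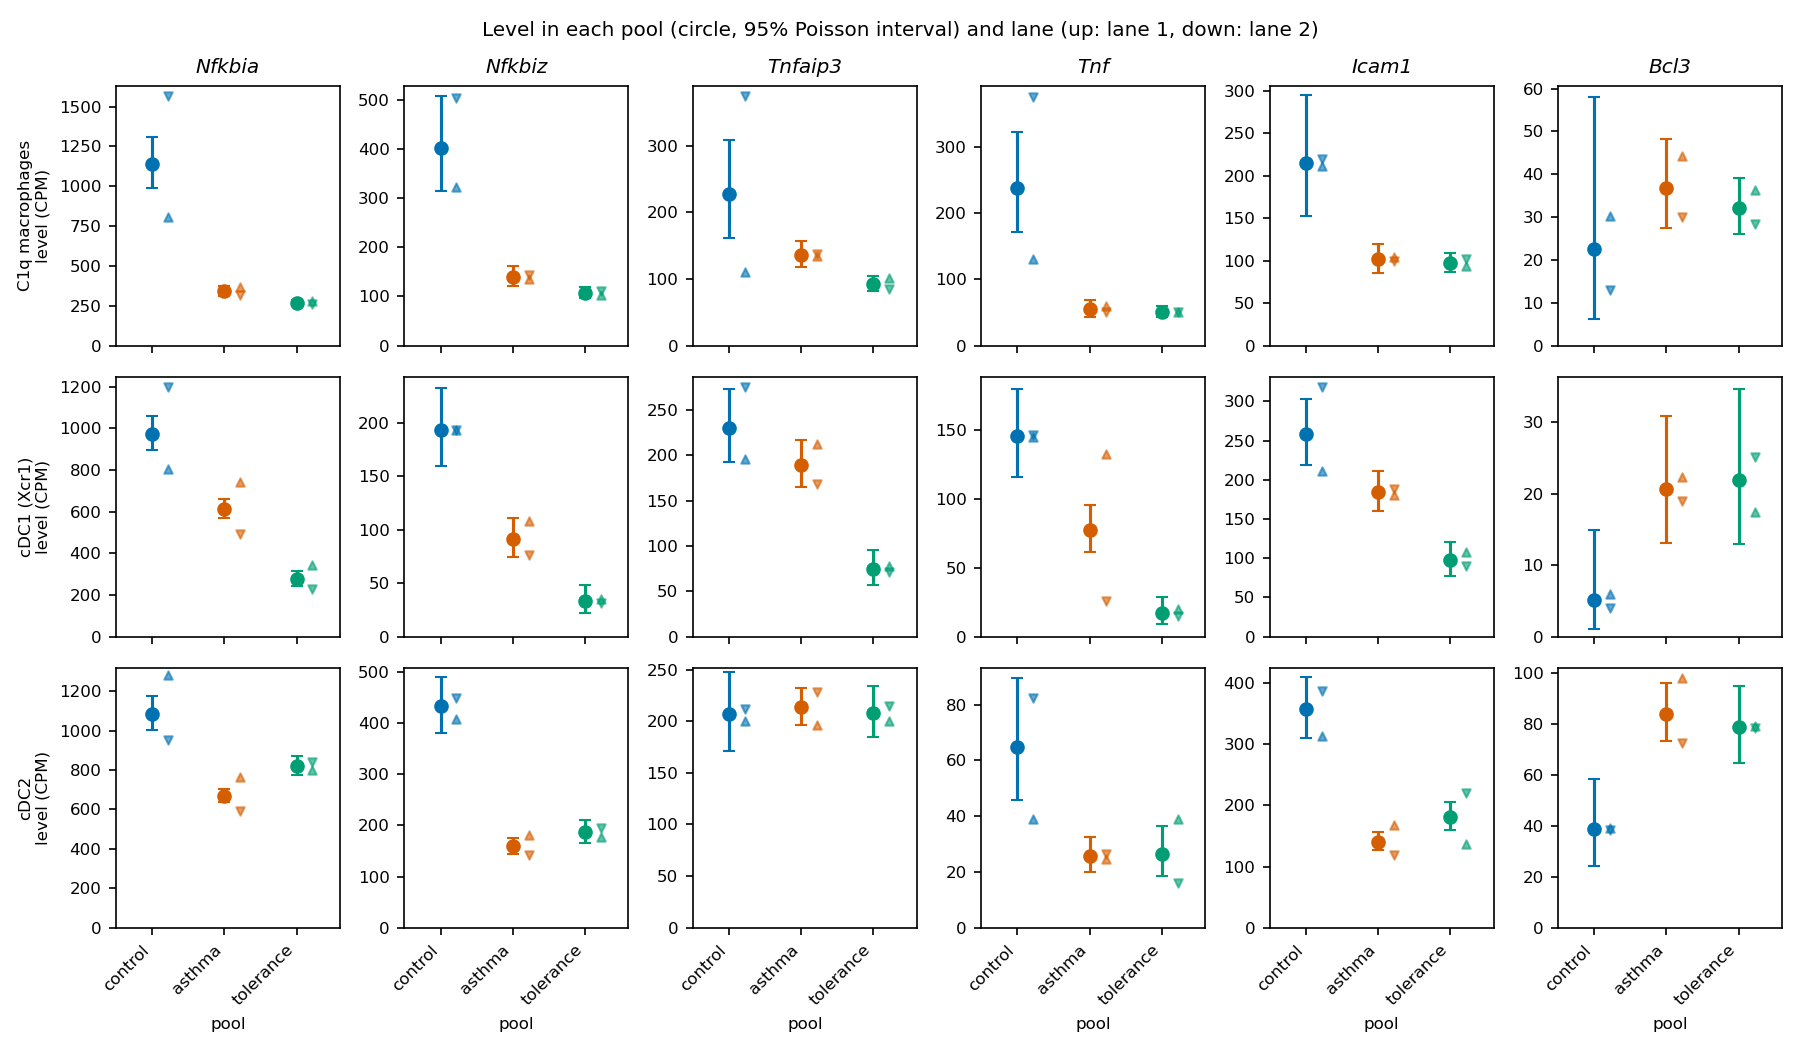
Levels in CPM of 6 members in C1q macrophages, cDC1 and cDC2 in the control, asthma and tolerance pools. Circles are pools with their 95% Poisson interval, and triangles pointing up and down are lanes 1 and 2. Nfkbia stands at 973, 613 and 276 CPM in cDC1 and at 1139, 340 and 269 CPM in C1q macrophages, where the control lanes lie far apart.

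In other classes few members differed between tolerance and asthma. No member passed the fold in alveolar macrophages (0 of 30, background 1.7%), C1q macrophages (0 of 30, 2.65%) or nonclassical monocytes (0 of 28, 3.72%). In mature DCs 1 of 29 passed (background 5.47%), which was Tnf with 3 UMIs in tolerance and 50 in asthma, a ratio of 6.24 (2.02 to 31.3). In B cells 2 of 24 passed (4.17%), Tnip3 with 2 UMIs against 35 and Tnfaip3 with overlapping intervals. In T cells 2 of 18 passed (6.48%), Nfkbib with 2 UMIs against 18 and Tnip3, whose ratio had opposite signs in the lanes, 1.85 and -3.69 on the log2 scale. In B cells of the asthma pool Bcl3 was at 65.3 CPM against 14.1 CPM in control (log2 ratio 1.92), Nfkbiz and Ikbkg had overlapping intervals, and Nfkbiz changed sign between the lanes (0.62 and -1.76).

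For mature DCs and C1q macrophages the control pool was too small for a count, and its values stand side by side with the others. In mature DCs Nfkbia had 3201, 1694 and 1638 CPM and Icam1 882, 334 and 344 CPM, both highest in the 28 control cells. Rel (1041, 1071 and 959 CPM) and Nfkb2 (262, 275 and 297 CPM) were nearly level across the pools. The mature DC markers themselves summed to 12233, 7002 and 7747 CPM in these pools, and their part in the differences of Nfkbia and Icam1 was not tested. The early response genes summed to 3964, 3513 and 3290 CPM in mature DCs. Neutrophils had the most, at 23257, 21212 and 24790 CPM, and also the highest mean of Nfkbia, with 2774, 2550 and 2010 CPM in the 3 pools. Their part in the neutrophil level of Nfkbia was not tested. Endothelial cells held 636, 1093 and 634 CPM of Icam1, the adhesion molecule through which leukocytes bind the vessel wall, the highest mean of any class, and 304 ± 40.2 CPM of Tnfrsf1a (SD, n = 3 pools).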

How the data were processed

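The authors deposited raw UMI counts per gene and barcode for each treatment and lane, made with Cell Ranger 3.1.0 on mm10 and demultiplexed by hashtag with Seurat 3.1.5, per the study's methods and the submitters' processing notes. No cell type labels were used. Barcodes with at least 500 genes, at most 20000 UMIs and at most 20% mitochondrial UMIs were kept (10088 of 10901). Scrublet's automatic threshold marked 0.0585% and 0.121% of cells in the lanes, so the top 2% of scores per lane (232 cells) were removed. A cell was gated to a class when at least 3 of its markers were detected and its score led the next class by 0.2, and 1992 cells stayed ungated. For each class, the UMIs of a pool were added up to give 30 sums for 10 classes, which entered 1 fit in edgeR 4.0.16 (R 4.3.3) with the pool as a block, with TMM scaling, at an adjusted p under 0.05. The fit was run on simulated counts with a common dispersion and 200 changed genes, whereas 3442 genes were called in mature DCs against cDC2. The simulation thus checked the procedure and adds no support to the calls. Treatments, with 1 pool each, were compared by fold alone, with exact Poisson 95% intervals that cover counting error only. Members and gene lists were chosen with earlier results of these data known, and the 10 early response genes after the results were seen. Named members were the 5 largest calls in each direction with the same sign in all pools, the 5 subunits and up to 2 genes per direction of each other list, and other members named beside them were chosen after their values were seen. Alternatives were DESeq2 1.42.0, other scaling, filters, gates and cell floors, no doublet removal, no pool block, and leaving out each pool or lane. Python 3.11.15 and scanpy 1.11.5 were used. Promoter sequences came from RefSeq and matched 25 of 30 members.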

Additional observations from a re-analysis of the deposited data

How the results depend on the processing

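Of 1299 single values recomputed under the alternatives, 1187 stayed the same, 103 kept the direction and lost the call, 7 moved and 2 reversed. A tested member stayed the same when it kept its direction and its call. A ratio between treatments did so when it kept its sign and changed by less than the counting error of its pools. Such a ratio may have fallen below the fold, and the members past the fold are counted separately below. The reversals, both without replicate 2 (lane 2), were log2 ratios of Nfkbiz in B cells (asthma against control, 0.62, and -1.76 without lane 1) and Tnip3 in T cells (tolerance against asthma, 1.85, and -3.69 without lane 1). Leaving out 1 pool or lane gave, for mature DCs against cDC2, 18 to 23 members higher, 1 to 2 lower and 1863 to 3931 genes called. For cDC2 against alveolar macrophages it gave 15 to 18 higher, 3 to 6 lower and 2518 to 5141 genes. For C1q against alveolar macrophages it gave 11 to 15 higher, 1 to 7 lower and 1518 to 3733 genes. For nonclassical monocytes against C1q macrophages it gave 8 to 15 higher, 0 to 1 lower and 1257 to 2682 genes, and the lower member was also lost (0) with only the compared classes, the stricter gate, the floor of 1200 genes per cell and DESeq2. For B against T cells it gave 1 to 3 higher, 3 to 7 lower and 547 to 1114 genes, and the 1200-gene floor gave 3 lower and 615 genes. The cause of these differences was not tested. Members past the fold for asthma against control without a lane numbered 1 to 3 in alveolar macrophages, 1 to 3 in nonclassical monocytes, 1 to 6 in cDC1, 4 in cDC2 and 3 to 4 in B cells. For tolerance against asthma they numbered 0 to 1, 0 to 2, 2, 5, 0 to 1, 0 to 2, 1 to 3 and 0 to 3 in alveolar macrophages, C1q macrophages, nonclassical monocytes, cDC1, cDC2, mature DCs, B cells and T cells. Keeping likely doublets gave 1 in alveolar macrophages and 1 in B cells (asthma against control), and 1 in B cells and 6 in T cells (tolerance against asthma). The stricter gate gave 2 (asthma against control) and 1 (tolerance against asthma) in nonclassical monocytes. The 1200-gene floor gave 3 in nonclassical monocytes (asthma against control) and 1 in C1q macrophages (tolerance against asthma). Adding 10 UMIs gave 3 in cDC2 (asthma against control), and 0 in mature DCs and 1 in B cells (tolerance against asthma). The median of all genes shifted by over 0.1 on the log2 scale without the filter on low counts (-0.15 in cDC2 against alveolar macrophages and -0.15 in nonclassical monocytes against C1q macrophages) and with DESeq2 (0.19 in C1q against alveolar macrophages). Pools of under 50 cells and genes of a few UMIs limit the depth.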
